A study of Homo sapiens with 104 samples.

Results

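The genes described here are the core and linker histone genes of the histone clusters, taken as every gene whose single symbol in the annotation of the array starts with H1-, H2AC, H2BC, H3C or H4C. This rule gave 50 genes on 58 probe sets, of 19775 genes with a single symbol and 54675 probe sets in all. By class, 10 were linker H1 genes, 9 were H2A genes, 14 were H2B genes, 7 were H3 genes and 9 were H4 genes. The rule also took in H1-10-AS1, an antisense RNA of the H1-10 locus, which is no histone gene. The pseudogenes H2AC5P, H4C10P and H1-9P are members too.

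Transcripts were measured on oligonucleotide arrays in 26 human lymphoblastoid lines, which are B cells immortalised with Epstein-Barr virus. MNNG-treated and untreated cultures had 52 arrays each, and each line and condition was arrayed in duplicate. MNNG is a methylating agent whose lesion O6-methylguanine kills dividing cells through mismatch repair unless the protein MGMT removes it. The lines were TK6, an established line without MGMT, its derivative MT1, which also lacks functional mismatch repair, and a panel of 24 numbered lines. All were grown to mid log phase, and neither the dose of MNNG nor the time of exposure is given in the labels. Of the MNNG arrays, 22 were left out because the log2 difference between 2 probe sets for the added control RNA cre was -5.91 to -4.96 in them, where it was 0.082 to 0.83 in the other 82 arrays. This removed 21 panel arrays and 1 MT1 array, so that 19 panel lines, both TK6 arrays and a lone MT1 array remained for MNNG. The labels do not say whether the duplicates are separate cultures, and the p-values may therefore reflect only technical variation between arrays. All 7 measured B-cell markers were well expressed, with mean levels of 7.53 to 12.1.

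Cells need large amounts of histone protein while they copy their DNA, and the clustered histone genes are transcribed mainly in S phase. Each nucleosome core is built from H2A, H2B, H3 and H4, and H1 binds the linker DNA between cores. Most transcripts of these genes end in a stem-loop bound by the protein SLBP and carry no poly(A) tail, but several of the genes also give a polyadenylated form when cells leave the cycle or differentiate. Affymetrix labelling starts from an oligo(dT) primer, so the values below are mainly those of polyadenylated transcripts and say little about the stem-loop forms. Levels are log2 intensities on a scale whose bottom is 5, and changes are log2 differences of MNNG minus untreated, with the standard error after ±. Of the 50 members, 27 had a mean level below 6 and are called near-floor, because small changes cannot be measured there.

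The H2A and H2B genes lie in pairs that are read outwards from a shared stretch of DNA, and classical work on their promoters named the octamer (bound by OCT1), the CCAAT box and the TATA box. The 250 bases before the start site were taken from RefSeq (GRCh38.p14) for 43 members that matched by symbol. The letters ATTTGCAT, CCAAT and TATAAA were searched on both strands, so that a match on the other strand reads as the reverse complement, and capitals mark the matches. H2BC12 and H2AC6 are shown because they moved most in TK6 among the genes of their class, H2BC5 because it rose without an octamer match, and H1-10 because it fell. H2BC12 lies on the minus strand at chr6:27146856-27147105, H2AC6 on the plus strand at chr6:26123922-26124171, H2BC5 on the plus strand at chr6:26157871-26158120, and H1-10 on the minus strand at chr3:129316287-129316536.
H2BC12: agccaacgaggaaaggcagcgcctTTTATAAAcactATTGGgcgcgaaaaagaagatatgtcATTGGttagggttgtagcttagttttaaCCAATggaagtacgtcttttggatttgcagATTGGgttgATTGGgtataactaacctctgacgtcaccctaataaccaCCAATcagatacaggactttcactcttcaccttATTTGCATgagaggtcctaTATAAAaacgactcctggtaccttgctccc
H2AC6: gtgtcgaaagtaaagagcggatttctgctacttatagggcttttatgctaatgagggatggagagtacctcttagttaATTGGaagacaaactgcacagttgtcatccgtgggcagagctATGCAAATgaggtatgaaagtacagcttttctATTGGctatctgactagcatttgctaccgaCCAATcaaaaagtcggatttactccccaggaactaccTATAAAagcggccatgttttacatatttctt
H2BC5: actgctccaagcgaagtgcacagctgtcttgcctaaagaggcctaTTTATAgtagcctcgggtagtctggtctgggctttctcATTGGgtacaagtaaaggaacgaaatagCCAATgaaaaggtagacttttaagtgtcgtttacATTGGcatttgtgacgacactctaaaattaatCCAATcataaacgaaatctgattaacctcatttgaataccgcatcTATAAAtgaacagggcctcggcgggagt
H1-10: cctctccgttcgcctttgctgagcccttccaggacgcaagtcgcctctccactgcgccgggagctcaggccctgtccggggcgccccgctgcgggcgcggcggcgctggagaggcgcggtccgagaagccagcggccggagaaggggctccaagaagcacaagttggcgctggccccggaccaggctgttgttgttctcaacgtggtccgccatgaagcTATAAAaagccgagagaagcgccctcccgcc

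The octamer letters occurred before 10 of 13 H2B genes and 6 of 8 H2A genes, and before 0 of 9 H1, 0 of 6 H3 and 0 of 7 H4 genes, against 1.632% of all 35116 promoters of the table. The H2BC12 window held the octamer, 6 CCAAT matches and 3 TATA matches, of which the pair farthest from the start overlap. The H2AC6 window overlaps that of its divergent partner H2BC4 by 245 bases, and 1 octamer therefore counts for both genes. In all, 4 H2A and H2B pairs shared a window in this way (H2AC6 with H2BC4, and H2AC14, H2AC15 and H2AC17 with the H2B gene of the same number). CCAAT occurred before 13 of 13 H2B, 8 of 8 H2A, 6 of 6 H3, 8 of 9 H1 and 2 of 7 H4 genes, against 32.01% of all promoters, and H1-10 had none. TATAAA occurred before 28 of the 43 members (65.12%), against 10.72% of all promoters.

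In TK6, the line with intact mismatch repair and no MGMT, MNNG raised polyadenylated transcripts of H2B genes and of H2AC6 by several fold. H2BC12, which encodes an H2B protein, rose 12.0-fold, the H2A gene H2AC6 rose 6.81-fold and the H2B gene H2BC5 rose 5.09-fold. Of the 10 linker H1 genes, 1 was called, H1-10, which encodes a replication-independent H1 and fell to a ratio of 0.535, and that call ended when either replicate was left out. Of the 50 members, 16 rose and 2 fell at an adjusted p below 0.05 (limma, Benjamini-Hochberg over all genes), where 29.8% of all 19775 genes were called, 15.9% up and 13.8% down. The members called made up 36% of the list, a share close to that of all genes. With the 22 arrays put back, none of which is from TK6, 5 members rose and 0 fell. The median change was 0.76 over the 14 H2B genes and 0.44 over the 9 H2A genes, against -0.021 over all genes, -0.11 over the 10 H1 genes, -0.047 over the 7 H3 genes and 0.019 over the 9 H4 genes. Above the floor it was 2.21 over 7 H2B genes and 0.051 over 5 H2A genes, against -0.019 over all genes at such levels. Of those H2B genes, H2BC12L, H2BC5, H2BC6, H2BC9 and H2BC21 had probe sets that can match several transcripts. The others, H2BC12 and H2BC14, changed by 3.59 and -0.020. Of the 4 H2A genes called in TK6, 3 were near-floor. In TK6, the share of probe sets at the bottom of the scale was 1.35% and 23.7% on the MNNG arrays and 25.5% and 27.4% on the untreated arrays, and its part in these changes was not tested. In a culture, more transcript per cell and a larger share of cells that hold it cannot be told apart.

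**Figure D1:**
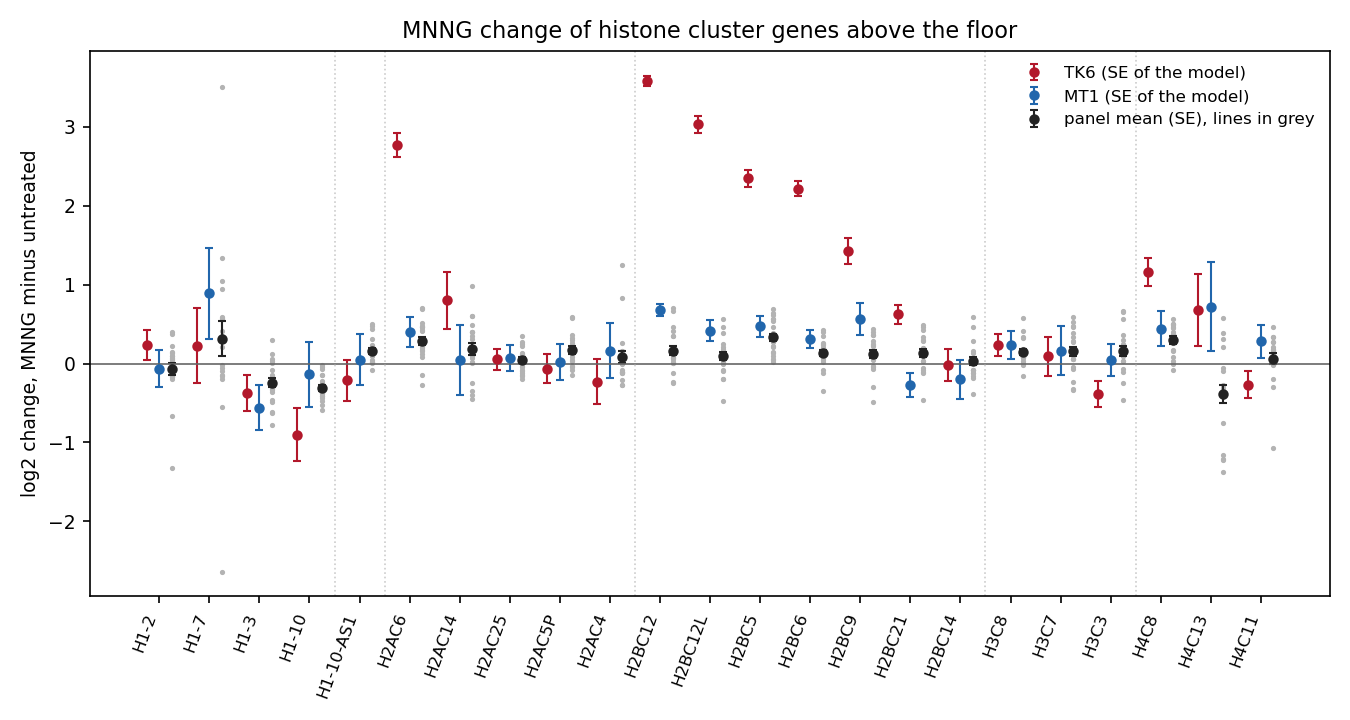
Log2 change of the 23 members with a mean level of 6 or more (MNNG minus untreated, y axis) in TK6, in MT1 and in the panel, with standard errors, grouped by class and ordered within a class by the TK6 change; grey points are the 19 panel lines. The H2B genes H2BC12, H2BC12L, H2BC5, H2BC6 and H2BC9, the H4 gene H4C8 and the H2A gene H2AC6 stand above 1 in TK6, while the panel means of all 23 lie between -0.38 and 0.33.

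H2BC12 had levels of 11.51 and 11.54 in MNNG-treated TK6, against 7.85 and 8.02 in untreated TK6. Both treated arrays lay over 3 log2 units above both untreated arrays, and the change was 3.59 ± 0.063 (adjusted p = 6.91e-36). H2BC12L, an H2B gene on chromosome 21 that is a close copy of H2BC12, had 9.97 and 9.91 in treated TK6 and 6.70 and 7.12 in untreated TK6. Its probe set can match several sequences, so its rise of 3.03 ± 0.11 (adjusted p = 6.11e-25) may not be independent of that of H2BC12, which was not tested. H2AC6 had 8.74 and 8.80 in treated TK6, against 5.86 and 6.15 in untreated TK6, where it stood near the floor. The H2AC6 change of 2.77 ± 0.15 (adjusted p = 6.23e-19) therefore understates the fold.

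H2BC5 had 9.43 and 9.27 in MNNG-treated TK6, against 7.10 and 6.91 in untreated TK6, a change of 2.35 ± 0.11 (adjusted p = 2.18e-21). A further H2BC5 probe set rose by 2.12 in TK6. H2BC6 had 9.06 and 8.89 in treated TK6 and 6.69 and 6.83 in untreated TK6, and rose by 2.21 ± 0.094 (adjusted p = 1.17e-22). H2BC9, another H2B gene of the large cluster on chromosome 6, had 7.80 and 7.78 in treated TK6 and 6.39 and 6.34 in untreated TK6. For these genes, as for H2BC12 and H2AC6, treated and untreated arrays did not overlap. The probe sets of H2BC5 (the further one included), H2BC6, H2BC9 and H2AC6 can match several transcripts. Their rises may therefore not be independent of that of H2BC12, which was not tested.

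The other H2B genes called in TK6 were mostly near-floor. They rose by 0.90 (H2BC4), 0.89 (H2BC11), 0.62 (H2BC21), 0.53 (H2BC17) and 0.30 (H2BC3), which brought the count to 10 of 14 H2B genes. The 4 H2B genes not called were H2BC1, H2BC13, H2BC14 and H2BC15, with changes between -0.18 and -0.012. Of these, 3 were near-floor, and H2BC14 had a mean level of 6.03. H2BC21 lies on chromosome 1 rather than in the chromosome 6 clusters, and it is known from other cells for its polyadenylated form.

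Among H2A genes, H2AC8 rose by 0.76, H2AC15 by 0.46 and H2AC17 by 0.44, all of them near-floor. H2AC14 changed by 0.80 ± 0.37 and did not pass (adjusted p = 0.101). The octamer letters were present before 8 of the 9 H2B genes with a sequence that rose in TK6 and before 2 of the 4 that did not, and H2BC5 was the riser without them. With the octamer, the median TK6 change was 0.76 over 10 H2B genes, and without it -0.025 over 3 H2B genes, 2 of which were near-floor. Of the 10 H2B genes with it, 5 were near-floor. Among H2A genes the medians were 0.60 over 6 with the octamer, of which 3 rose and 3 were near-floor, and 0.26 over 2 without, of which 1 rose and 1 was near-floor. These are descriptions of a few genes, some of which share a window, and carry no test.

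H3 and H4 pair with each other in the nucleosome core. Of 7 H3 genes, 1 rose in TK6, the near-floor H3C6 (0.62 ± 0.12). Among the 9 H4 genes, H4C8 rose by 1.16 ± 0.18, with 6.45 and 6.63 in treated TK6 and 5.41 and 5.35 in untreated TK6. The near-floor H4C4 fell by 0.45, with 5.55 and 5.72 in treated TK6 and 6.06 and 6.11 in untreated TK6. H4C13 changed by 0.68 ± 0.46 and H4C11 by -0.27 ± 0.17, and neither passed.

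The called H1 gene, H1-10, had 6.40 and 6.26 in MNNG-treated TK6, against 6.93 and 7.53 in untreated TK6, a change of -0.90 ± 0.33 (adjusted p = 0.0356). The groups did not overlap, but the untreated arrays lay well apart, and the call ended without replicate 1 (-1.27, adjusted p = 0.0508) and without replicate 2 (-0.53, adjusted p = 0.516). H1-2, which encodes an abundant H1, had 7.74 and 7.74 in treated TK6 and 7.83 and 7.19 in untreated TK6, so the groups overlapped (0.23 ± 0.19, adjusted p = 0.428). H1-3 changed by -0.37 ± 0.23 and H1-7, a testis H1, by 0.22 ± 0.47, and neither passed.

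**Figure D2:**
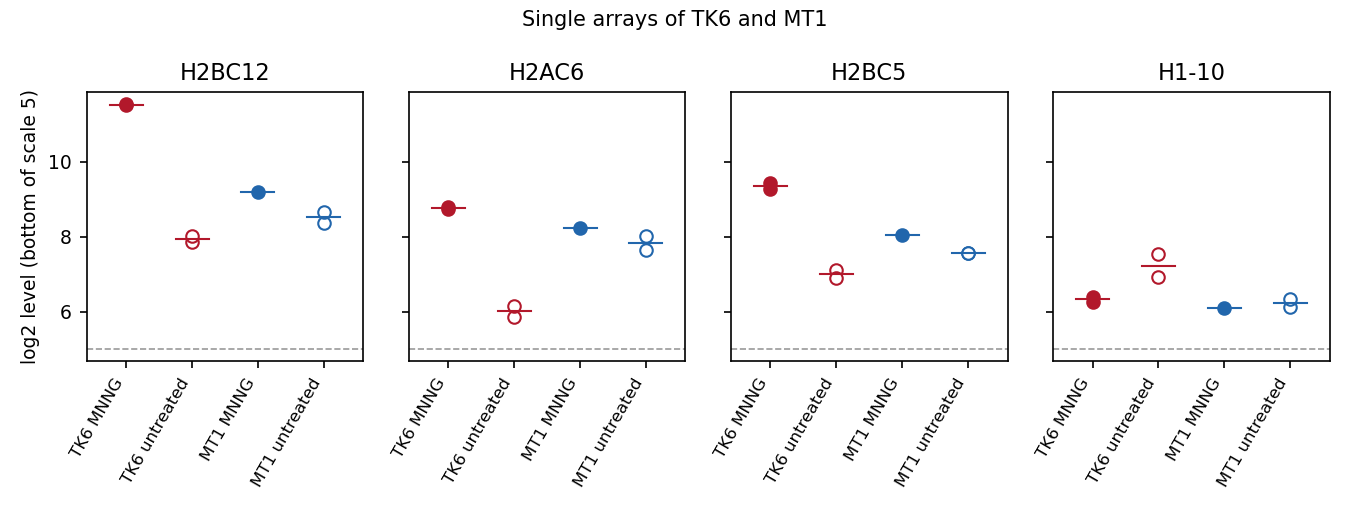
Log2 level of H2BC12, H2AC6, H2BC5 and H1-10 on each kept array (points) of TK6 and MT1, MNNG (filled) left of untreated (open), with group means as lines and the scale bottom of 5 dashed. MNNG-treated TK6 stands at 11.51 and 11.54 for H2BC12, against 7.85 and 8.02 in untreated TK6, and MT1 has a lone MNNG array.

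In MT1 the same comparison gave smaller rises, and 2 members were called, H2BC12 and H2BC5, where 2.13% of all genes were called, 1.44% up. H2BC12 had 9.19 on the MNNG array, against 8.38 and 8.66 in untreated MT1, a change of 0.68 ± 0.078 (adjusted p = 5.75e-07). H2BC5 had 8.04 on the MNNG array, against 7.56 and 7.57 in untreated MT1, a change of 0.47 ± 0.13 (adjusted p = 0.0496). With a lone treated array these calls assume that it varies like the other groups, and both were lost when arrays were centred on their medians (adjusted p = 0.448 and 0.268) and when TK6 and MT1 were fitted alone (adjusted p = 0.269 and 0.387). H2AC6 had 8.23 on the MNNG array and 8.03 and 7.64 in untreated MT1 (0.40 ± 0.19, not called). In MT1, the share of probe sets at the bottom of the scale was 0.075% on the MNNG array. On the untreated arrays it was 1.84% and 40.6%. Its part in the MT1 changes and in the differences between MT1 and TK6 was not tested.

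The difference in response, TK6 minus MT1, was tested as an interaction and called 9 members, 8 higher and 1 lower, where 17.2% of all genes were called, 8.69% higher and 8.49% lower. The H2BC12 change was 3.59 in TK6 and 0.68 in MT1, a difference of 2.91 ± 0.10 (adjusted p = 1.46e-24). H2BC12L differed by 2.61 ± 0.17 (adjusted p = 1.7e-15), H2AC6 by 2.37 ± 0.24 (adjusted p = 2.36e-10) and H2BC6 by 1.90 ± 0.15 (adjusted p = 2.09e-13). H2BC5, H2BC11, H2BC21 and H2BC9 differed by 1.88, 1.04, 0.89 and 0.86, and H4C4 by -0.73. After MNNG, the TK6 level was above that of MT1 for H2BC12, H2BC12L, H2AC6, H2BC6, H2BC5 and H2BC21. For H2BC9 it was below, at 7.79 in TK6 against 8.61 on the MT1 array. With values as deposited, without quantile normalisation, TK6 calls were 11 up and 0 down, and the interaction calls were 5 up and 0 down. Without replicate 1, the interaction called 7 members, and with the 22 arrays put back it called 2.

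TK6 and MT1 also differed before treatment. In untreated cells, MT1 minus TK6 called 9 members, 8 higher and 1 lower in MT1, where 17.9% of all genes were called, 9.46% higher and 8.45% lower. H2AC6 had 8.03 and 7.64 in untreated MT1 and 5.86 and 6.15 in untreated TK6, a difference of 1.83 ± 0.15 (adjusted p = 4.89e-13). H2BC9 had 8.60 and 7.50 in untreated MT1, against 6.39 and 6.34 in untreated TK6 (1.68 ± 0.17, adjusted p = 7.31e-11). Its untreated MT1 arrays lay well apart, and the standard error rests on a spread shared by all lines, not on these arrays alone. H2BC12 was higher in untreated MT1 by 0.58 ± 0.063 (adjusted p = 1.05e-09), and H2BC6, H2BC12L, H2BC21, H2BC5 and H4C11 by 0.92, 0.74, 0.57, 0.56 and 0.54. With the 22 arrays put back, 1 member was called. H1-10 was lower in MT1, with 6.14 and 6.33, against 6.93 and 7.53 in TK6 (-0.998 ± 0.33, adjusted p = 0.0296).

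Set against the 24 untreated panel lines, untreated TK6 had low levels of several genes that rose in it. Its level was below that of all 24 lines for H2BC12, H2BC12L, H2AC6, H2BC6, H2BC9 and H4C8, and also for H1-2, H2AC25 and H4C13. The share of all genes with an untreated TK6 level below every line was not computed. These low levels are therefore not shown to be particular to histone genes. For H2BC5, 1 panel line, line 20 with 6.93, lay below the 7.00 of untreated TK6. The mean H2BC12 level of untreated TK6 was 7.94, against 8.44 in the lowest and 12.6 in the highest panel line. After MNNG the TK6 level of 11.52 lay above that of 18 of the 24 untreated lines, and for H2AC6 the treated level of 8.77 lay above 19 of 24. The TK6 change exceeded that of every one of the 19 panel lines for 10 of the 14 H2B genes and for 15 of the 50 members (30%), against 16.2% of all genes. It lay below that of every line for 4 members (8%), against 18.7% of all genes.

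In the panel, the H2B genes H2BC5 and H2BC12 and the H2A gene H2AC6 rose and the linker gene H1-10 fell, each by a small amount. Of the 50 members, 14 rose, 8 of them above the floor and 6 near-floor, and 3 fell, where 30% of all genes were called, 20% up and 10.1% down. The called members came to 34% of the list. Among the 23 members with a level of 6 or more, 11 were called, against 47.1% of all genes at such levels. With the 22 arrays put back, 28 members rose and 5 fell. The shares without them lay near the background, and 0 members changed by 1.5-fold or more, which 53 of all genes did. The median change was 0.059 over all members and 0.016 over all genes, and 0.13 over the 23 members above the floor, where all genes at that level had 0.045. Of the 19 lines, 11 kept a lone MNNG array, set against the mean of both untreated arrays. In lines 1, 3, 13, 15, 20, 21, 22, 23 and 24 that array was replicate 1. Line 20 aside, their untreated replicate 2 had 24.3% to 44.4% of probe sets at the bottom of the scale. Their MNNG arrays had at most 0.67% there, and the part of this in the panel changes was not tested.

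H2BC5 rose most, by 0.33 ± 0.048, and was higher after MNNG in 19 of 19 lines (adjusted p = 7.62e-06). Its levels over the 19 lines ran from 7.31 through a median of 8.81 to 10.3 after MNNG, and from 6.93 through 8.67 to 10.2 untreated. The lines' own levels thus overlap widely between conditions, and the rise shows only within each line. H2AC6 rose by 0.29 ± 0.053 in 17 of 19 lines (adjusted p = 0.000169), with a lowest, median and highest level of 6.74, 8.13 and 9.53 after MNNG and of 6.45, 7.92 and 9.68 untreated. H2BC12 rose by 0.16 ± 0.055 in 16 of 19 lines (adjusted p = 0.026), with levels of 9.14, 11.2 and 12.4 after MNNG and of 8.44, 11.1 and 12.6 untreated. The H2BC12 call ended without line 20, in which it rose most (0.13, adjusted p = 0.0532), with arrays centred on their medians (0.081, adjusted p = 0.415), and without replicate 1 (0.20, adjusted p = 0.135) or replicate 2 (0.11, adjusted p = 0.15).

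The H4 gene H4C8 rose by 0.30 ± 0.045 in 17 of 19 lines (adjusted p = 1.33e-05). Its levels were 5.72, 6.68 and 7.71 after MNNG and 5.64, 6.29 and 7.67 untreated. The pseudogene H2AC5P rose by 0.17 ± 0.046 in 15 lines (adjusted p = 0.00538), a call that ended without replicate 1 (0.10, adjusted p = 0.634). The H2AC6 call also ended without replicate 1 (0.27, adjusted p = 0.111). That run also left out the lines whose lone MNNG array was replicate 1. Of the H3 genes, 4 of 7 rose, by 0.063 to 0.15, of which H3C6, H3C2 and H3C1 were near-floor and H3C8 was not. The other risers were the near-floor H2AC17, H2AC8 and H2BC4 and the H2B gene H2BC6, with 0.13 to 0.15, and the antisense RNA H1-10-AS1, with 0.16 in 18 of 19 lines.

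The linker histone H1-10 fell in 19 of 19 lines, by 0.31 ± 0.039 (adjusted p = 1.79e-06). Its levels were 5.77, 7.00 and 8.20 after MNNG, against 6.14, 7.39 and 8.48 untreated. H1-3 fell by 0.24 ± 0.060 in 14 lines (adjusted p = 0.00284), and H4C13 fell by 0.38 ± 0.11 in 15 lines (adjusted p = 0.0117). The H1-3 call ended without replicate 1 (-0.32, adjusted p = 0.0673) and without replicate 2 (-0.22, adjusted p = 0.0549). The H4C13 value was -0.77 without replicate 1 and -0.24 without replicate 2, where it was no longer called (adjusted p = 0.274). With the arrays that were left out put back, the values were 0.092 for H1-10 and 0.024 for H1-3, neither called, and without replicate 2 the H1-10 value was -0.13 (adjusted p = 0.159). Without replicate 1 the panel called 4 members, and without replicate 2 it called 10. The run without replicate 1 lost lines 1, 3, 13, 15, 20, 21, 22, 23 and 24, and that without replicate 2 lost lines 4 and 17. Fewer lines, fewer arrays and a change that does not repeat were not separated in these lost calls. For H1-10, leaving out any single line gave -0.32 to -0.29, where leaving out replicate 2 gave -0.13. Its changes in lines 4 and 17 were -0.43 and -0.015. The part of the replicate 2 arrays in the H1-10 fall was not tested. H1-10 and its antisense RNA H1-10-AS1 thus moved in opposite directions in the panel. H1-2 changed by -0.068 ± 0.078 and was not called.

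**Figure D3:**
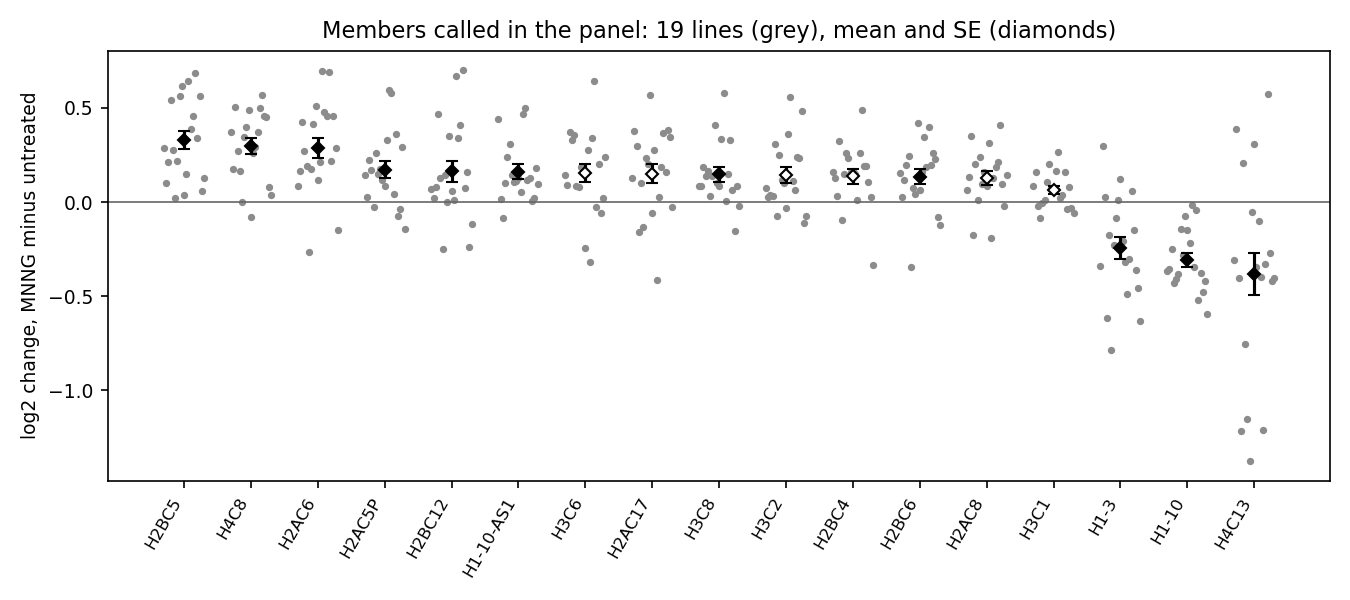
Log2 change (MNNG minus untreated) of the 17 members called in the panel, in each of the 19 lines (grey points) and as the mean with its standard error (diamonds, open for near-floor members). H2BC5 is above 0 in 19 of 19 lines and H1-10 below 0 in 19 of 19.

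Response differences between lines were called for 4 of the 14 H2B genes and for H1-7. The test of response differences among the 19 lines called 5 members, where 3.78% of all genes were called. H2BC12 ranged from -0.25 in line 9 to 0.70 in line 20 (adjusted p = 1.25e-08). H2BC12L, H2BC6 and H2BC5 also had their least change in line 9, and H2BC12L and H2BC5 their largest in line 20. Without line 9 the test called 2 members, without line 17 it called 3, and with the 22 arrays put back it called 0. With a replicate left out, each panel line had at most a lone array per condition. The test then rested on the spread of the TK6 and MT1 arrays and cannot show whether the differences repeat. Over the 19 lines the changes of H2BC12 and H2BC12L had a correlation of 0.913, and those of H2BC12 and H2BC5 of 0.816. The median over all 253 pairs of the 23 members above the floor was 0.111, and these values share arrays and scaling.

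H1-7 was the remaining member called. It changed by -2.64 in line 17, with 5.80 on the MNNG array and 8.51 and 8.37 in untreated arrays, and by 3.50 in line 24, with 9.08 on the MNNG array and 5.55 and 5.61 in untreated arrays. Both lines had a lone MNNG array. The line 17 MNNG array had 53.5% of its probe sets at the bottom of the scale and the line 24 untreated arrays 40.8% and 44.4%, where the median over kept arrays was 0.169% after MNNG and 1.61% untreated, and the part of this in the H1-7 changes was not tested. The test lost H1-7 without line 17 (adjusted p = 0.153) or line 24 (adjusted p = 0.233), and without line 17 the panel change of H1-7 was 0.48 (adjusted p = 0.0444), against 0.31 (adjusted p = 0.322) with it. The 2 other H1-7 probe sets were near-floor, with panel changes of 0.029 and 0.052.

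H1-2 showed a different pattern over the lines. Its change ran from -1.32 in line 4, with a level of 7.72 after MNNG and 9.03 untreated, to 0.40 in line 20, and the test of differences did not call it (adjusted p = 0.0514). Over 19 lines the H1-2 change and that of CDKN1A, the p53-induced inhibitor of cyclin-dependent kinases, had a Pearson correlation of -0.805 and a rank correlation of -0.653. Without lines 1 and 4, the 2 lines farthest from the median CDKN1A change, these were -0.700 and -0.525. With values as deposited they were -0.649 and -0.423 over the 19 lines. The relation without lines 4 and 9 was not computed, and line 4 had a lone MNNG array. The points share arrays, and this relation is 1 of 24 computed between 8 members and 3 measures, so it is given as a description. In line 4 CDKN1A rose by 1.29 and in line 9 by 0.87, the lines in which H1-2 was lowest relative to untreated cells (-1.32 and -0.66). In line 1, where CDKN1A rose by 0.93, the H1-2 change was -0.18, and in line 15, where it rose by 0.77, the H1-2 change was -0.10. The H1-2 change also had a correlation of 0.778 with untreated MGMT level, which was 0.282 without the 2 lines farthest from the median. For H2BC12 the correlation with the CDKN1A change was -0.0501.

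**Figure D4:**
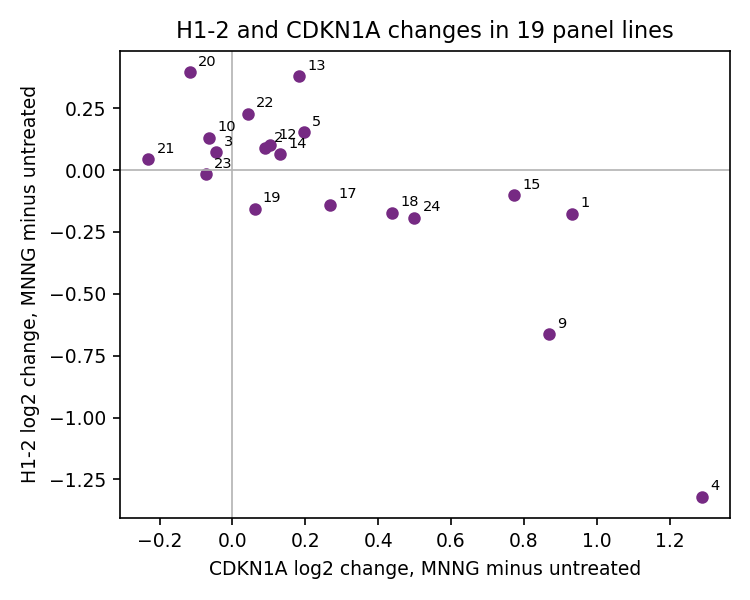
Log2 change of H1-2 (y axis) against that of CDKN1A (x axis), MNNG minus untreated, in the 19 panel lines, each marked with its number. Lines 4 and 9, with CDKN1A rises of 1.29 and 0.87, have the lowest H1-2 changes, -1.32 and -0.66, while line 1, with a CDKN1A rise of 0.93, has -0.18.

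Before treatment, levels of H2BC12, H2BC12L, H2BC6, H2BC5, H2AC6 and H1-2 varied widely between lines. The test among the 24 untreated lines called 29 of 50 members (58%), a share near the 51.1% of all genes called, and 14 with the 22 MNNG arrays put back in the model. H2BC12 spanned 17.5-fold, from 8.44 in line 20 through a median of 10.6 to 12.6 in line 24 (adjusted p = 1.24e-38). H2BC12L spanned 22.3-fold, H1-2 15.2-fold, H2BC6 12.4-fold, H2BC5 9.45-fold and H2AC6 9.41-fold. H2BC14 spanned 1.78-fold and was not called (adjusted p = 0.0951). H2BC21 had its median at 6.26, and line 24 stood apart at 8.09.

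The untreated arrays of line 24, with the high shares of probe sets at the bottom of the scale given above, had median intensities of 21.7 and 19.8, and the part of this in the following ranks was not tested. Line 24 had the highest untreated level for 15 of the 23 members above the floor, and for 10 of the 12 H2A and H2B members, against 5.64% of all genes at that level. Line 20 had the lowest level for 5 of those 12 H2A and H2B members, against 7.16% of all genes. Over the 24 lines, the untreated level of H2BC12 had a correlation of 0.990 with H2BC12L, 0.973 with H2BC6, 0.921 with H2AC6, 0.919 with H2BC9, 0.909 with H2BC5, 0.899 with H1-2 and 0.847 with the H4 gene H4C8. Without line 24 the values for H2AC6 and H1-2 were 0.905 and 0.878. H1-10 (-0.0325) and H1-7 (-0.487) did not follow this order. Near-identical histone sequences can share probes, above all on probe sets made to match several transcripts (H2BC12L, H2BC6, H2BC5, H2BC9 and H2AC6 among them), and the part of this in the correlations was not tested.

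**Figure D5:**
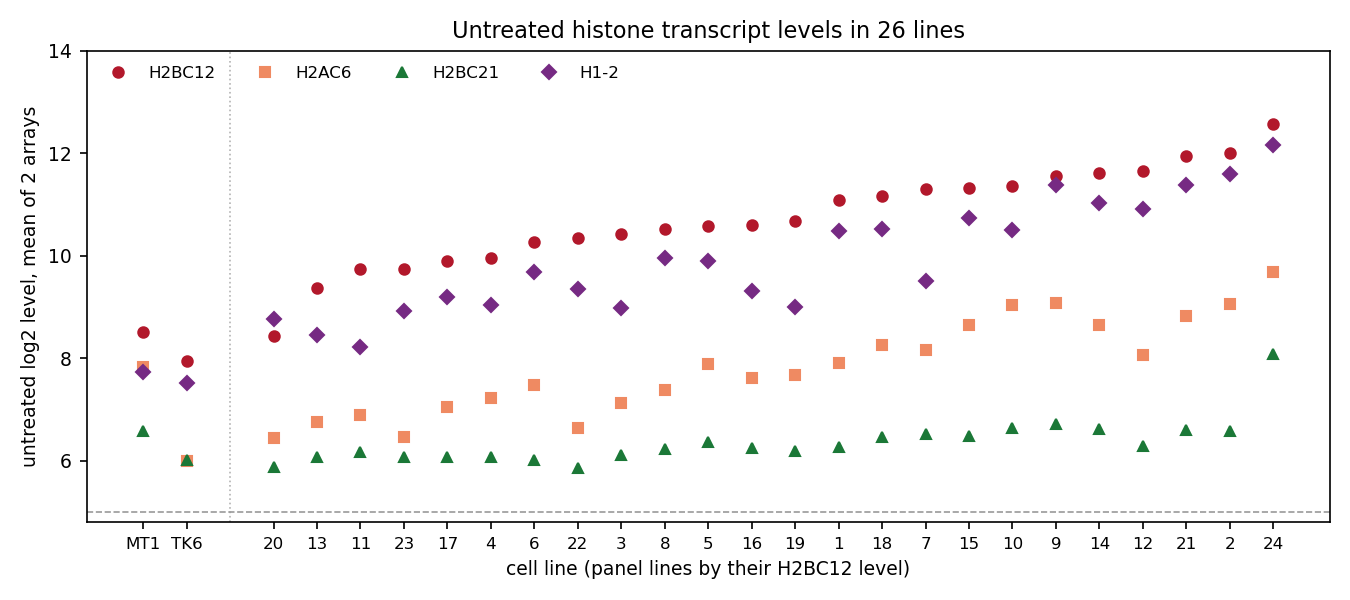
Untreated log2 level (mean of 2 arrays) of H2BC12, H2AC6, H2BC21 and H1-2 in MT1, TK6 and the 24 panel lines, which are ordered by H2BC12; the dashed line is the scale bottom of 5. H2BC12 runs from 8.44 in line 20 to 12.6 in line 24, and TK6 lies below every panel line for H2BC12, H2AC6 and H1-2.

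Genes that act with the histones were measured on the same arrays. Most of them had a level of 6 or more, at which 46.3% of all genes were called in TK6, 3.43% in MT1 and 47.1% in the panel, and the counts below are given beside those shares. Of 31 S-phase replication genes, 25 rose and 3 fell in TK6, 3 rose in MT1, and 8 rose and 5 fell in the panel. PCNA, the sliding clamp of DNA polymerases, rose by 1.13 ± 0.11 in TK6 and by 0.25 ± 0.041 in the panel. The helicase subunit MCM3 fell by 0.25 in the panel and rose by 0.34 in TK6. Beside these, 10 of 14 H2B and 4 of 9 H2A genes rose in TK6, and the part of cell cycle phase in the histone changes was not tested.

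Of 26 genes for histone transcript synthesis and processing, 8 rose and 2 fell in TK6, 2 rose in MT1, and 13 rose and 2 fell in the panel. NPAT, the coactivator at histone gene clusters, rose by 0.62 ± 0.13 in TK6. CCNE2, a cyclin E whose kinase phosphorylates NPAT, rose by 1.55 ± 0.16 in TK6, by 0.74 in MT1 and by 0.27 in the panel. SLBP, which binds the stem-loop, had changes of 0.23 in TK6 and 0.062 in the panel, neither called, and rose by 0.43 in MT1. In the panel the processing factor SYMPK rose by 0.27 and the Sm protein SNRPD3 by 0.27, while the cap-binding protein NCBP1 fell by 0.25.

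Of 17 genes of the polyadenylation machinery, which makes the tails that the arrays detect, 7 rose and 2 fell in TK6, 3 rose and 1 fell in MT1, and 4 rose and 6 fell in the panel. CLP1, a cleavage factor subunit, rose by 1.65 in TK6 and by 0.29 in the panel, and the poly(A)-binding protein PABPC1 fell by 0.57 in TK6, by 0.81 in MT1 and by 0.33 in the panel. Of 26 histone chaperones, 6 rose and 6 fell in TK6, 1 rose in MT1, and 7 rose and 9 fell in the panel. The H3.3 chaperone HIRA fell by 0.90 in TK6 and by 0.74 in the panel, and SSRP1, a subunit of the chaperone FACT, fell by 0.80 in TK6 and by 0.46 in the panel.

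Histone variants outside the clusters are made throughout the cell cycle, most of them from polyadenylated transcripts. Of 11 measured, 3 rose and 5 fell in TK6, 0 were called in MT1, and 5 rose in the panel. H2AX, the variant phosphorylated at DNA breaks, rose by 0.44 ± 0.16 in TK6 and by 0.087 in the panel. H2AZ2 fell by 0.61 in TK6 and rose by 0.097 in the panel. H2AZ1 had a change of 0.17 in TK6, not called, and rose by 0.12 in the panel. Of 5 damage reference genes, 4 rose in TK6 and 5 in the panel, and their median change in MT1 was 0.25. Among them, CDKN1A and MDM2 rose by 2.95 each in TK6 and by 0.28 and 0.47 in the panel. In MT1, with its lone MNNG array, they changed by 0.087 and 0.50. H2BC12 moved by more than either in TK6. Markers of T and NK cells, of myeloid cells and of fibroblasts and epithelia were near-floor for 6 of 8, 6 of 8 and 6 of 9 genes. Their highest mean levels were 6.08, 7.36 and 7.55, the last level with the lowest B-cell marker (7.53). The summed T and NK intensity was 262.5 to 506.6 after MNNG and 233.7 to 833.5 untreated. For fibroblasts and epithelia it was 378.1 to 1482.2 and 291.1 to 1620.5, and for B cells 3289.2 to 12202.3 and 3124 to 12780.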

How the data were processed

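Biotinylated cRNA of 26 lymphoblastoid lines was read on Affymetrix arrays. Each deposited value is an intensity made with PLIER, per the submitters' processing notes, and it is linear by its range; the PLIER version is not given in the sources used here. Intensities plus 16 were log2 transformed and quantile normalised over the 82 arrays kept. Of 54675 probe sets, 41097 had a single symbol, and the brightest stood for each of 19775 genes, with no filter on low values. limma 3.58.1 (R 4.3.3, data.table package 1.17.8) gave moderated tests with trend and Benjamini-Hochberg adjustment over all genes, called at 0.05. The panel test averaged arrays per line and condition with line as a block. TK6, MT1, their difference, untreated MT1 minus TK6 and the F tests were contrasts in 1 model of all arrays, with 35 residual degrees of freedom. The number of arrays limits the precision. The analysis was tested on simulated data. Figures used Python 3.11.15 with matplotlib 3.10.9.

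The members and lists were chosen with earlier results of these data known. Values in full were given to H2BC12 and H2AC6, the largest called changes of each comparison and the H1 genes above the floor, by a fixed rule; other members were named after their values were seen. Alternatives were other pseudocounts (1 and 64), scalings, filters, probe set rules and blocks, every array kept in, and each replicate or line left out.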

Additional observations from a re-analysis of the deposited data

Results flagged for a closer look

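The response to MNNG differed between TK6 and MT1, by limma's interaction test over all genes, for 9 members. The differences (TK6 minus MT1, log2) were 2.91 for H2BC12, 2.61 for H2BC12L, 2.37 for H2AC6, 1.90 for H2BC6, 1.88 for H2BC5, 1.04 for H2BC11, 0.89 for H2BC21, 0.86 for H2BC9 and -0.73 for H4C4. MT1 had a lone MNNG array in each, which was assumed to vary like the other groups, and H2BC21 changed by 0.62 in TK6 and by -0.27 in MT1. H2BC11 and H4C4 are near-floor.

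Signal also appeared on probe sets that the annotation gives to several histone genes, which the rule leaves out. Of 20 such probe sets, 12 rose in TK6 and 1 fell (adjusted over 42898 probe sets). The share of all 42898 probe sets called in TK6 was not counted, so these counts lack their own background. Among the 19775 genes with a single symbol, 15.9% rose and 13.8% fell in TK6. All 5 for H2B genes alone rose, by 1.10 to 2.20, against panel changes of 0.13 to 0.22. Of these 5, 1 was also called in MT1, where it rose by 1.26 (adjusted p = 9.27e-08) and in TK6 by 2.20. The exception in direction was a probe set for 14 H4 genes, with a mean level of 11.3, which fell by 2.06 in TK6 and by 0.55 in the panel.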

How the results depend on the processing

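Most values of the named members kept their direction and their side of the threshold, over runs of which many left out a single line. The counts of members called moved more under several alternatives, as given below. The H2BC12, H2BC12L, H2AC6 and H2BC5 rises in TK6 stayed called under every alternative run. With a pseudocount of 64, MT1 called 1 member and the test between lines 8. Without quantile normalisation, TK6 called 11, MT1 1, TK6 minus MT1 5, the test between lines 1 and untreated lines 18, and the median change of all genes moved to 0.13 in the panel and TK6 and 0.33 in MT1. MT1 called 0 after median centring, 0 with TK6 and MT1 arrays alone, 1 with every probe set fitted and 4 with array weights, which gave 12 between lines. With the dimmest 50% of genes left out, 19 members were tested, and 11 were called in the panel, 10 in TK6 and 18 in untreated lines. With every array kept in, the panel called 33, TK6 5, MT1 0, TK6 minus MT1 2, untreated MT1 minus TK6 1, the test between lines 0 and untreated lines 14, and the panel changes of H1-10 and H1-3 turned to 0.092 and 0.024. Without the line block the panel called 1 member. The cause of these shifts was not tested.

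Leaving out a replicate gave 4 to 10 calls in the panel, 14 to 16 in TK6, 0 between lines and 16 to 17 in untreated lines; without replicate 2, MT1 has no MNNG array and gave no value. Leaving out a line gave 14 to 22 calls in the panel, 27 to 30 in untreated lines, and 2 to 7 between lines; the last 2 sets were added after the data were seen. Same-numbered arrays did not deviate together (correlations of -0.603 to 0.143 over 9 pairs, 2 above 0.1). These values gave no sign that the numbers pair samples, but cannot exclude it, and the labels do not say. With the replicate block the counts were 17 in the panel, 18 in TK6, 3 in MT1, 10 for TK6 minus MT1, 9 for untreated MT1 minus TK6, 7 between lines and 29 in untreated lines. Near-floor signal limits 27 of 50 members, and a lone MNNG array limits MT1.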

Other observations

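Outside the histone genes, the genes whose untreated level followed that of H2BC12 most closely over the 24 panel lines were RAB4A, which encodes a small GTPase of endosome recycling, with a correlation of 0.826, PAIP1, which encodes a partner of the poly(A)-binding protein, with 0.769, and BLZF1, with 0.729, among 10877 genes compared. These lie below the values for H2BC6 (0.973) and H1-2 (0.899). Over the changes of 19 lines, the closest to H2BC12 was CCR6 (0.801), and the closest to H1-2 were ANP32E, which encodes a chaperone that removes H2A.Z (0.904), SRSF3 (0.901) and PWP1 (0.901). These genes were picked as the top of a search over all genes, and the correlations are descriptions.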
